A study of Homo sapiens with 9 samples.

Results

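A set of 8 human genes was followed across the libraries of a TLX1 siRNA experiment: TC2N, SYTL3, GOLGA7B, PTPRU, WNK2, CYB561, DIP2C and LBH. They were listed for large differences of expression under the siRNA1 label together with little known function in T cells, so 8 of the 58096 gene identifiers counted were taken, and all 8 were among the 18554 genes that passed the low-count filter. The list gives no numeric threshold. The genes were chosen by their levels in the siRNA1 libraries set against the NTC libraries, so that contrast, and the one between siRNA1 and siRNA2, are described for them; counts of calls there are printed only beside those of all genes and support nothing.

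RNA came from ALL-SIL, an established cell line from a T-cell acute lymphoblastic leukaemia, in which TLX1, a homeobox transcription factor, acts as an oncogene. Small interfering RNAs (siRNAs), short duplexes that guide the cutting of matching mRNAs, were brought into the cells by electroporation; NTC is not spelled out in the labels, and siRNA sequence, dose and harvest time are not stated in the sources used here. There were 3 libraries labelled TLX1 siRNA1, 3 labelled TLX1 siRNA2 and 3 labelled NTC siRNA, numbered as replicates 1 to 3 under each label, so no group went without an siRNA. Nothing in the labels tells if replicates came from different cultures of this 1 line, and p-values therefore reflect the spread among these libraries alone, possibly a technical one. In such bulk RNA fewer cells carrying a transcript and less of it per cell cannot be told apart.

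The libraries held 58305492 to 99524663 reads counted in genes. TLX1, the targeted gene, went against the labels: it stood at 406, 457 and 387 CPM (read counts relative to the library total, scaled by TMM factors) in the libraries labelled siRNA1, at 198, 231 and 179 CPM in those labelled siRNA2 and at 184, 167 and 183 CPM in those labelled NTC. It was 2.34-fold higher under the siRNA1 label than under the NTC label (edgeR quasi-likelihood adjusted p = 0.000449). Under the siRNA2 label TLX1 was not told apart from NTC (log2 difference 0.19, 95% interval −0.04 to 0.42), so by label neither siRNA lowered it. Groups are therefore named by label throughout, and differences are given as differences between labels. Whether libraries were exchanged between labels cannot be told from the files. An exchange of the siRNA1 and NTC labels would turn the sign of each difference between them. Each difference given below as siRNA2 against NTC would then be one between the 2 TLX1 siRNAs. Of 10 T cell markers 8 exceeded 100 CPM under every label, while CD2 averaged 2.78 to 4.38 CPM and the T cell receptor constant gene TRAC 0.167 to 0.216 CPM. Summed over 6 B cell markers the level was 22.9 to 27.6 CPM under the siRNA1 label, 19.9 to 27.1 under siRNA2 and 25.7 to 32.5 under NTC. The fibroblast list, nearly all of it PDGFRB with DCN and LUM at 0, summed to 12.8 to 20.1 CPM under siRNA1, 16.2 to 22 under siRNA2 and 16.7 to 24.6 under NTC; the myeloid, erythroid, NK and epithelial lists reached at most 1.29 CPM in a library, with HBA1, NCAM1, NCR1, KLRF1, KRT18 and KRT19 at 0. Of these markers CD3G fell under siRNA1 against NTC by edgeR (log2 fold change −0.44, adjusted p = 0.0172). With the replicate number as a block edgeR also called CD2 (−0.63, adjusted p = 0.000526), the myeloid marker ITGAM (−1.32, adjusted p = 0.00317) and PDGFRB (−0.33, adjusted p = 0.00352) lower and CD7 higher (0.53, adjusted p = 5.46e-05). The part of other cells in the results was not tested.

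The 8 genes do not belong to one pathway. TC2N and SYTL3 encode proteins with paired C2 domains, modules that bind membrane lipids. SYTL3 is a synaptotagmin-like effector of Rab27 GTPases, which tether secretory vesicles, and GOLGA7B is an accessory protein of the palmitoyltransferase ZDHHC5, which anchors proteins to membranes by adding a lipid. PTPRU is a receptor-type protein tyrosine phosphatase of the adhesion-molecule class that also holds PTPRK, PTPRM and PTPRT. WNK2 is a kinase of the WNK family, whose members act through the kinases STK39 and OXSR1 on cation-chloride cotransporters. CYB561 is a transmembrane cytochrome that carries electrons from ascorbate into secretory vesicles. DIP2C is a relative of the Drosophila disco-interacting protein with domains like those of acyl-CoA ligases, and LBH is a small transcriptional cofactor named for limb bud and heart and known as a Wnt target in mammary epithelium.

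The following 3 stretches of 3′ UTR are shown because they hold GCAGTAC, a 7-base word that an earlier search of these same libraries had found in genes lower under the siRNA1 label, so that its presence describes the genes and tests nothing. The word was looked for on the mRNA strand in the longest annotated 3′ UTR of each gene (GENCODE release 29, GRCh38), and its reverse complement GTACTGC was counted in the same way. Capitals mark the word, and each line runs 5′ to 3′.
TC2N: gatttttaaaaGCAGTACtcctagggaaat
LBH, first site: tctgcccagctGCAGTACtcacgccccatg
LBH, second site: gtccgccgagaGCAGTACcgtgtggccaag
The TC2N stretch lies on the minus strand at chr14:91780470-91780499, inside the part of the gene that overlaps CATSPERB, a gene with at most 8 counts in any library. The LBH stretches lie on the plus strand at chr2:30258650-30258679 and chr2:30259047-30259076. The word starts at base 2612 of the 3349 bases of the TC2N 3′ UTR, and at bases 1040 and 1437 of the 2407 bases of that of LBH. Of 8 genes 2 held the word, both among the 5 with a lower mean under the siRNA1 label than under NTC. DIP2C, WNK2, PTPRU, CYB561, GOLGA7B and SYTL3 did not hold it in the window searched. Not every annotated transcript held it: 2 of 5 searched for TC2N did, and 1 of 5 for LBH. Which transcripts these cells express was not tested. Of 12293 tested genes with such a 3′ UTR 5.14% held it, as did 37.3% of the 134 genes called lower under the siRNA1 label and 3.75% of the 80 called higher. The reverse complement was in none of the 8 and in 6.06% of all. The called-lower genes had longer 3′ UTRs, with a median of 2026 bases, against 1290 bases over all genes searched. None of the 2545 mature miRNAs in the RefSeq table had bases 2 to 8 complementary to the word.

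Of the 2 C2-domain genes, TC2N was lower under the siRNA1 label and SYTL3 was higher under both siRNA labels. TC2N (chromosome 14, 91779751 to 91867536, minus strand) stood at 0.234, 0.687 and 0.525 CPM in replicates 1 to 3 labelled siRNA1, at 2.06, 2.32 and 2.52 CPM in those labelled siRNA2 and at 2.77, 2.96 and 2.9 CPM in those labelled NTC. Each siRNA1 library lay below each of the other 6, and each siRNA2 library below each NTC library. The fitted log2 difference was −2.58 (SE 0.29) between siRNA1 and NTC, a 5.97-fold lower level, which ranks 2 by size among the 151 genes called lower there. The siRNA1 libraries held 22, 63 and 50 reads of TC2N, so the level within that label is the least precise of the 3, and the log2 ratio to the NTC library of the same number was −3.57, −2.11 and −2.46. TC2N was also 4.76-fold lower under the siRNA1 than the siRNA2 label (log2 difference −2.25, SE 0.29).

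SYTL3 (chromosome 6, 158650014 to 158764876, plus strand) had another pattern. It stood at 3.52, 3.1 and 6.96 CPM in the libraries labelled siRNA1, at 3.45, 4.03 and 5.56 CPM in those labelled siRNA2 and at 1.51, 2.23 and 3.3 CPM in those labelled NTC. The siRNA1 and NTC libraries overlapped, through siRNA1 replicate 2 and NTC replicate 3, while each siRNA2 library lay above each NTC library. The log2 difference from NTC was 0.94 (SE 0.33) for siRNA1 and 0.88 (SE 0.34) for siRNA2, and that between the siRNA labels was 0.06 (SE 0.33, 95% interval −0.66 to 0.78). Without siRNA1 replicate 3 its siRNA1 difference was 0.49, and without NTC replicate 3 it was 1.26. Within each replicate number the log2 ratio to NTC was 1.22, 0.47 and 1.07 for siRNA1 and 1.19, 0.85 and 0.75 for siRNA2.

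GOLGA7B, the palmitoyltransferase partner, was higher under the siRNA1 label than under both others. GOLGA7B (chromosome 10, 97850239 to 97871580, plus strand) stood at 3.23, 3.11 and 4 CPM in the libraries labelled siRNA1, at 1.34, 1.04 and 1.43 CPM in those labelled siRNA2 and at 1.45, 1.32 and 1.54 CPM in those labelled NTC. All siRNA1 libraries lay above the other 6, and siRNA2 and NTC overlapped. The log2 difference was 1.26 (SE 0.18) between siRNA1 and NTC, a 2.4-fold higher level, and 1.45 (SE 0.18) between siRNA1 and siRNA2. It shares 125 exon bases with CRTAC1 on the other strand, and its strand-specific counts summed to 104% to 116% of the count without strand, so the count without strand is up to that much lower. CRTAC1 itself had at most 1 count in a library.

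**Figure D1:**
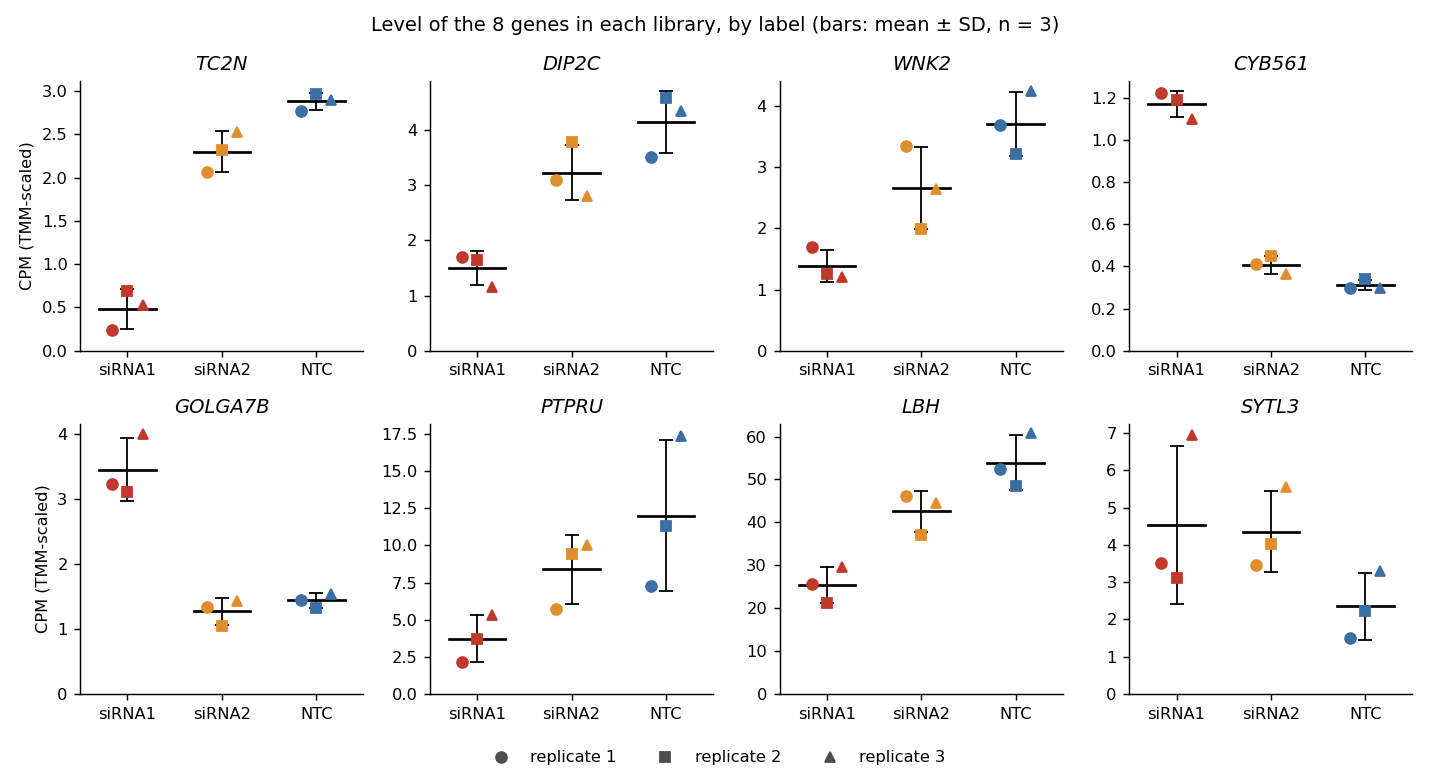
Level of each gene in every library, in CPM on linear axes from 0, with siRNA1 left of siRNA2 and NTC. Points are libraries, marked by replicate number, and bars give the mean ± SD of 3 libraries; TC2N averaged 0.482 ± 0.23 CPM under siRNA1, 2.3 ± 0.234 under siRNA2 and 2.88 ± 0.0971 under NTC.

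PTPRU and WNK2, the phosphatase and the kinase of the list, were lower under the siRNA1 label. PTPRU (chromosome 1, 29236516 to 29326813, plus strand) stood at 2.17, 3.69 and 5.34 CPM in replicates 1 to 3 labelled siRNA1, at 5.69, 9.41 and 10 CPM in those labelled siRNA2 and at 7.3, 11.3 and 17.4 CPM in those labelled NTC. The siRNA1 libraries lay below all others, with wide gaps between replicates of each label. The log2 difference of siRNA1 from NTC was −1.69 (SE 0.35), a 3.22-fold lower level. Within each replicate number the log2 ratio of siRNA1 to NTC was −1.75, −1.61 and −1.71, a narrower range than the levels themselves show.

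WNK2 (chromosome 9, 93184916 to 93320572, plus strand) stood at 1.69, 1.26 and 1.21 CPM in the libraries labelled siRNA1, at 3.34, 1.99 and 2.64 CPM in those labelled siRNA2 and at 3.69, 3.21 and 4.25 CPM in those labelled NTC. The siRNA1 libraries were the lowest of the 9, and siRNA2 replicate 1 lay above NTC replicate 2. The log2 difference of siRNA1 from NTC was −1.42 (SE 0.22), and that of siRNA1 from siRNA2 was −0.94 (SE 0.22). It shares 425 exon bases with C9orf129 on the other strand, which had at most 3 counts in a library.

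CYB561, the vesicle cytochrome, was the least abundant of the 8 under the NTC label and higher under siRNA1. CYB561 (chromosome 17, 63432304 to 63446378, minus strand) stood at 1.22, 1.19 and 1.1 CPM in the libraries labelled siRNA1, at 0.409, 0.451 and 0.365 CPM in those labelled siRNA2 and at 0.299, 0.341 and 0.299 CPM in those labelled NTC. Each siRNA1 library lay above the other 6, and each siRNA2 library above each NTC library. These levels rest on 115, 109 and 105 reads under siRNA1, 29, 36 and 22 under siRNA2 and 19, 34 and 25 under NTC. The log2 difference of siRNA1 from NTC was 1.89 (SE 0.20), a 3.71-fold higher level, and that of siRNA1 from siRNA2 was 1.51 (SE 0.19).

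DIP2C and LBH completed the lower genes. DIP2C (chromosome 10, 274190 to 689668, minus strand) stood at 1.7, 1.65 and 1.16 CPM in the libraries labelled siRNA1, at 3.1, 3.78 and 2.81 CPM in those labelled siRNA2 and at 3.51, 4.59 and 4.34 CPM in those labelled NTC. The siRNA1 libraries lay below the other 6, while siRNA2 replicate 2 lay above NTC replicate 1. The log2 difference of siRNA1 from NTC was −1.47 (SE 0.19) and that from siRNA2 was −1.11 (SE 0.19). Of the 6 annotated genes inside or across DIP2C, none had more than 2 counts in a library.

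LBH (chromosome 2, 30231369 to 30323730, plus strand), the gene with 2 copies of the word above in its longest 3′ UTR, was the most abundant of the 8. It stood at 25.7, 21.2 and 29.5 CPM in the libraries labelled siRNA1, at 46.1, 37.1 and 44.5 CPM in those labelled siRNA2 and at 52.4, 48.4 and 60.9 CPM in those labelled NTC. The 3 labels did not overlap, with siRNA1 lowest and NTC highest. The log2 difference of siRNA1 from NTC was −1.08 (SE 0.13), a 2.12-fold lower level, and that of siRNA1 from siRNA2 was −0.74 (SE 0.13). Per kilobase of exon, LBH averaged 5.43 CPM per kb under siRNA1, 9.06 under siRNA2 and 11.5 under NTC, and its NTC level exceeded that of 77.3% of tested genes. Next by this measure under NTC came PTPRU at 1.8 CPM per kb, SYTL3 at 0.811, DIP2C at 0.484 and TC2N at 0.468, the last pair within 1 SD of each other. WNK2 at 0.281, GOLGA7B at 0.223 and CYB561 at 0.0588 CPM per kb were the lowest, CYB561 above only 5.72% of tested genes.

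In the contrast that chose them, 7 of the 8 genes passed the edgeR test at an adjusted p under 0.05, beside 1.28% of all genes tested, and 7 had no overlap between the siRNA1 and NTC libraries, beside 15.8% of all genes. Of the 7 that passed there were 2 higher, beside 0.469% of all genes, and 5 lower, beside 0.814%. The gene that did not pass, and whose libraries overlapped, was SYTL3 (edgeR adjusted p = 0.311). PTPRU (edgeR adjusted p = 0.0431) passed in 3 of 9 fits with 1 library left out, and did not pass with library size alone (0.0608). With the replicate number as a block all 8 passed, beside 11.4% of all genes: 3 higher, beside 5.48%, and 5 lower, beside 5.93%. Between siRNA1 and siRNA2, 5 of the 8 passed, beside 1.08% of all genes (2 higher, beside 0.345%, and 3 lower, beside 0.738%). With the block 7 passed there, beside 10.6% (2 higher, beside 5.29%, and 5 lower, beside 5.27%). All of these counts, with and without the block and in both contrasts, follow from the choice of genes, and nothing is read from them.

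The siRNA2 libraries did not enter the choice of the genes, although the NTC libraries they are compared with did. The shared NTC libraries can push the siRNA2 differences the same way as the siRNA1 differences that chose the genes. The shares given here are therefore no independent check on the genes. By edgeR quasi-likelihood 0 of the 8 genes passed between the siRNA2 and NTC labels, where 0% of all tested genes passed by edgeR and 4 genes by DESeq2. At an unadjusted p under 0.05 there were 3 of the 8, namely SYTL3, LBH and WNK2, beside 2.11% of all genes, and DESeq2 and limma-voom also called 0 of the 8. The groups did not overlap for TC2N, CYB561, LBH and SYTL3, which is 4 of 8, beside 5.58% of all genes. With the replicate number as a block edgeR called 2 of the 8, beside 0.151% of all genes, with 1 higher (beside 0.0862%) and 1 lower (beside 0.0647%). SYTL3 rose under the siRNA2 label in that fit (log2 fold change 0.91, SE 0.14, edgeR adjusted p = 0.00263, higher in 3 of 3 replicate numbers), and LBH fell (log2 fold change −0.34, SE 0.07, edgeR adjusted p = 0.048, lower in 3 of 3).

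The siRNA2 differences are given without and with the replicate block, which pairs the libraries. Without the block the log2 difference was −0.33 for TC2N (95% interval −0.89 to 0.24), −0.36 for DIP2C (−0.77 to 0.05) and −0.48 for WNK2 (−0.95 to −0.02). It was −0.52 for PTPRU (−1.27 to 0.23), −0.34 for LBH (−0.63 to −0.05) and 0.88 for SYTL3 (0.14 to 1.61). GOLGA7B had −0.18 (−0.58 to 0.22) and CYB561 0.38 (−0.08 to 0.84). With the block the SEs were smaller for all but CYB561. PTPRU then had −0.47 (SE 0.10, edgeR adjusted p = 0.0577), WNK2 −0.51 (SE 0.14, edgeR adjusted p = 0.153) and DIP2C −0.37 (SE 0.13, edgeR adjusted p = 0.366). TC2N had −0.32 (SE 0.16, edgeR adjusted p = 0.602), GOLGA7B −0.19 (SE 0.14, edgeR adjusted p = 0.774) and CYB561 0.38 (SE 0.23, edgeR adjusted p = 0.702).

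**Figure D2:**
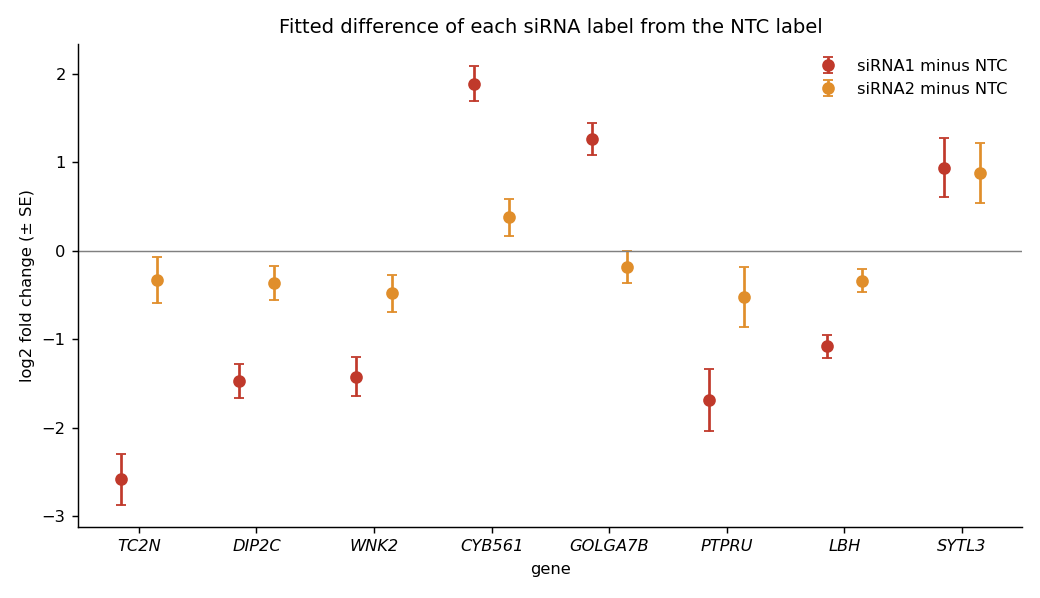
Fitted log2 fold change of each gene under the siRNA1 label (red, left of each pair) and the siRNA2 label (orange), each minus the NTC label, with its SE as bars. SYTL3 is at 0.94 for siRNA1 and 0.88 for siRNA2.

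Because replicate numbers recur under each label, they give a difference that the choice of genes did not use. In an F test of edgeR's quasi-likelihood fit, 4 of the 8 genes differed between replicate numbers with the label in the model (PTPRU, SYTL3, LBH and WNK2), beside 35.8% of all genes. For PTPRU the F statistic was 57.4 (edgeR adjusted p = 2.43e-07), and replicate 1 was lowest and replicate 3 highest under each of the 3 labels. For SYTL3 it was 28.7 (edgeR adjusted p = 2.56e-05), with replicate 3 highest under each label. For LBH it was 13.3 (edgeR adjusted p = 0.00147), with replicate 2 lowest under each label. WNK2 passed narrowly (F 5.39, edgeR adjusted p = 0.0381) and was lost without siRNA1 replicate 1 (0.135), siRNA2 replicates 1 (0.144), 2 (0.219) and 3 (0.0682) and NTC replicate 2 (0.0618). It was also lost by DESeq2 (adjusted p = 0.0642), which called 3 of the 8 genes and 5886 of all genes by number. The edgeR call failed too without the replicate 1 libraries (0.191) and for replicate 1 against 2 and 3 (0.241).

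The other genes did not pass by replicate number, with adjusted p of 0.0998 for GOLGA7B, 0.159 for DIP2C, 0.191 for TC2N and 0.74 for CYB561 in the same edgeR test. DIP2C passed without NTC replicate 3 (0.0315). The replicate term bears on precision: with it as a block, the SE of the siRNA1 difference of PTPRU was 0.10, against 0.35 without it, and that of SYTL3 0.13, against 0.33. For CYB561, the gene that varied least by number, the SE was 0.19 with the block and 0.20 without it. What the numbers mark is not given in the sources used here.

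**Figure D3:**
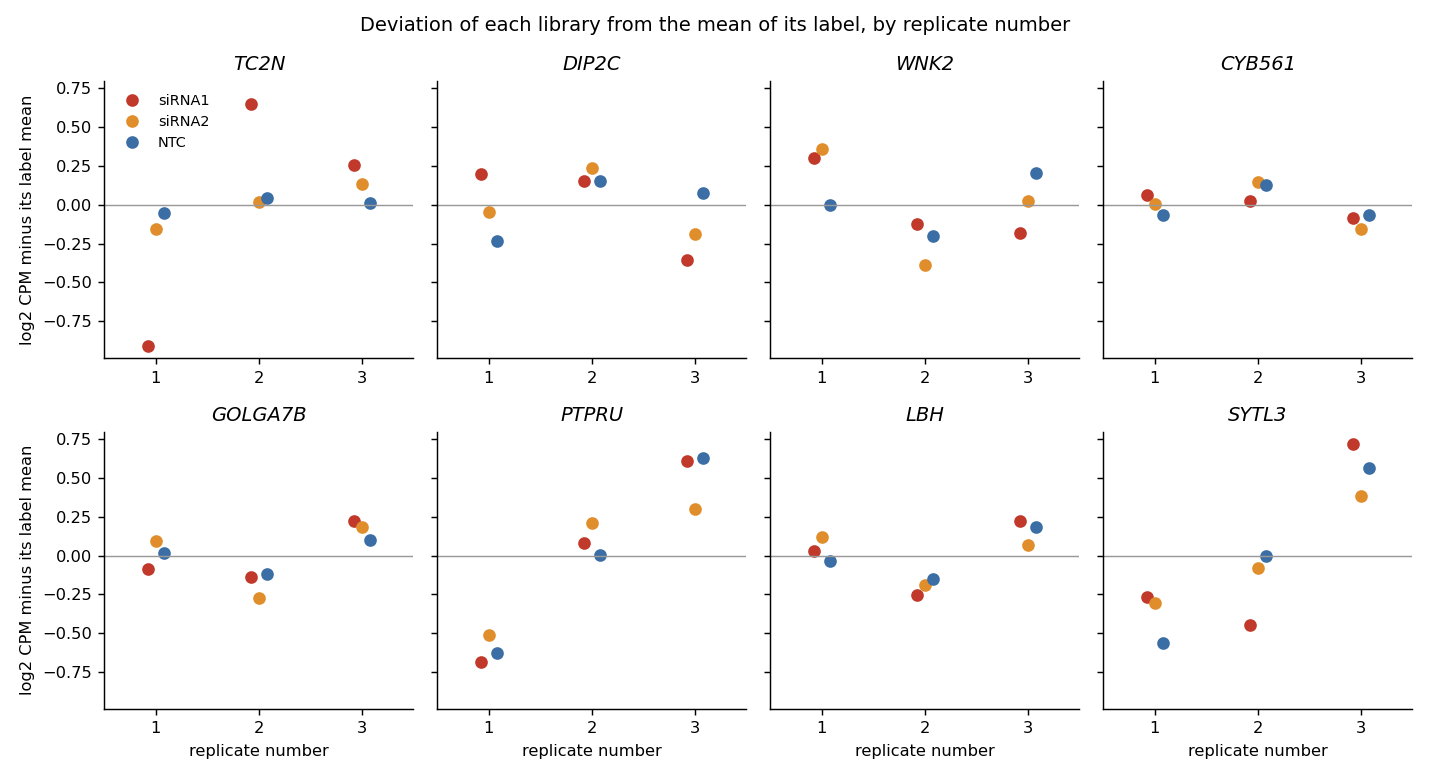
Log2 CPM of each library minus the mean of its own label, by replicate number, with siRNA1, siRNA2 and NTC as red, orange and blue points. Points of 1 number lie together for PTPRU, whose replicate 1 libraries are lowest and replicate 3 libraries highest, and all lie near 0 for CYB561.

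Relatives of the 8 genes were taken from 7 lists of families and pathways, 121 genes in all. Of the 82 tested, 2 rose and 1 fell under the siRNA1 label against NTC by edgeR, which is 3.66%, beside 1.28% of all genes tested. With the replicate block 7 rose and 10 fell, which is 20.7%, beside 11.4%. The median log2 difference over the 82 was 0.02, against 0.01 over all genes.

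The called relatives were 2 receptor phosphatases and 1 palmitoyltransferase. Of 9 tested receptor tyrosine phosphatases, PTPRC (CD45, the main phosphatase of the leukocyte surface) rose to 577 ± 28.5 CPM under siRNA1, against 389 ± 23.4 CPM under NTC (SD, n = 3 each; log2 fold change 0.57, edgeR adjusted p = 0.00778). PTPRJ, another phosphatase of blood cells, rose to 73.6 ± 1.61 CPM, against 48.1 ± 3.96 CPM under NTC (log2 fold change 0.61, edgeR adjusted p = 0.00458). They moved the other way from PTPRU, and both were lost without the 3 replicate 1 libraries (adjusted p = 0.148 and 0.079). Of the phosphatases closest to PTPRU, PTPRK averaged 0.291 CPM under siRNA1 and 0.348 under NTC, PTPRM was under 0.01 CPM in each label's mean, and PTPRT was at 0. Of 23 tested palmitoyltransferases and GOLGA7 genes, ZDHHC20 fell (log2 fold change −0.38, edgeR adjusted p = 0.0386), a call that did not hold without siRNA2 replicate 1 or any one of the siRNA1 or NTC libraries, 7 of the 9 omissions (highest edgeR adjusted p = 0.157), nor without the replicate 1 libraries (0.276). GOLGA7, the close relative of GOLGA7B, had a log2 difference of 0.02 (SE 0.11), and ZDHHC5, the enzyme GOLGA7B serves, −0.04 (SE 0.09).

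In the other 5 lists edgeR called 0 tested genes without the block, beside 1.28% of all genes. With the block it called 13.3% of the Rab27 and tandem C2 list, 0% of the DIP2 list and 20% of the WNK list. The share was 40% for the cytochrome b561 and metalloreductase list and 50% for the Wnt list, beside 11.4% of all genes. Of 15 Rab27 and tandem C2 genes 1 rose and 1 fell with the block: SYTL1 (log2 difference 0.34, edgeR adjusted p = 0.00291) and RAB27A, the small GTPase that SYTL3 binds (−0.52, edgeR adjusted p = 1.04e-05, at 36.6 ± 4.4 CPM under siRNA1 and 52.5 ± 8.2 under NTC; SD, n = 3 each). Neither of the 2 other DIP2 genes was called in either fit, at 0.17 for DIP2A and −0.09 for DIP2B. Of 15 WNK pathway genes 1 rose and 2 fell with the block; WNK1, the abundant member at 301 CPM under siRNA1 and 322 under NTC, had a log2 difference of −0.10 (SE 0.09), and STK39 and OXSR1 had −0.13 and 0.04. Of 10 tested genes in the cytochrome b561 and metalloreductase list 1 rose and 3 fell with the block. FRRS1 rose (0.72, edgeR adjusted p = 7.67e-05), in the direction of CYB561. SLC23A1 (−0.77, edgeR adjusted p = 4.73e-05), SLC40A1 (−0.37, edgeR adjusted p = 0.000582) and TFRC (−0.28, edgeR adjusted p = 0.00515) fell. CYB561A3 (0.05), CYB561D1 (0.14) and CYB561D2 (0.00) were not called in either fit. Of 8 Wnt targets and TCF factors 1 rose and 3 fell with the block. The feedback inhibitor AXIN2 (−0.48, edgeR adjusted p = 5.02e-05) and the transcription factors TCF7 (−0.40, edgeR adjusted p = 0.00035) and LEF1 (−0.24, edgeR adjusted p = 0.016) fell, while CTNNB1, which encodes beta-catenin, rose (0.26, edgeR adjusted p = 0.0082).

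**Figure D4:**
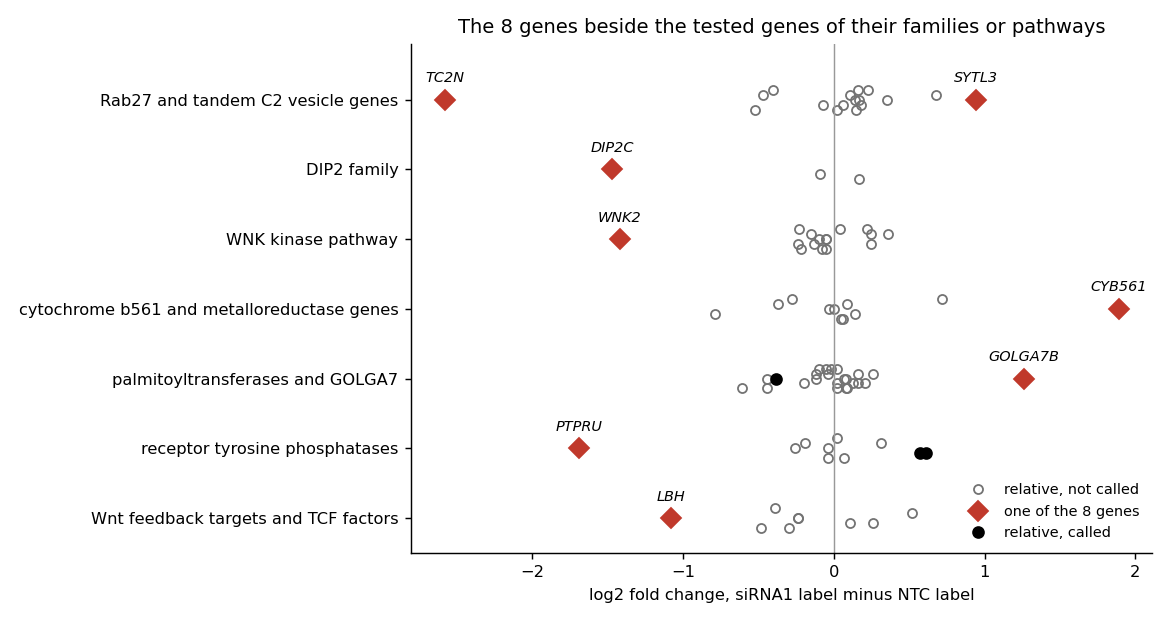
Log2 fold change of the siRNA1 label minus the NTC label for the 8 genes (red diamonds) and the tested genes of 7 related lists (circles; filled where edgeR called them without the block), 1 list per line. The 82 relatives lie between −0.79 and 0.72, and the 3 filled ones are PTPRC, PTPRJ and ZDHHC20.

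The 8 genes lie on 7 chromosomes, with DIP2C and GOLGA7B both on chromosome 10. Of the 16 tested genes nearest to them, 1 on each side, 1 was called under the siRNA1 label against NTC by edgeR, beside 1.28% of all genes. The block fit called 1 higher, beside 5.48% of all genes, and 3 lower, beside 5.93%. The called neighbour was ACE, the angiotensin-converting enzyme gene, which lies 30683 bases from CYB561 on the opposite strand. ACE stood at 0.478, 0.469 and 0.651 CPM under siRNA1, 0.113, 0.0752 and 0.183 under siRNA2 and 0.0945, 0.19 and 0.0958 under NTC. The siRNA1 libraries lay above all others, on 45, 43 and 62 reads, against 8, 6 and 11 under siRNA2 and 6, 19 and 8 under NTC. On these low counts ACE rose 4.04-fold (log2 fold change 2.01, SE 0.36, edgeR adjusted p = 0.0179). DESeq2 and the filter of at least 1 CPM in 3 libraries gave no adjusted p for ACE. Its call was lost without siRNA1 replicate 3 (adjusted p = 0.0809), NTC replicate 1 (0.0647), NTC replicate 3 (0.106) or the 3 replicate 1 libraries (0.148). On the other side of CYB561, TANC2 had a log2 difference of 0.66 (edgeR adjusted p = 0.768), on 4 to 32 reads in a library. The 16 neighbours lay 865 to 1391691 bases from their gene. The farthest was MATN1-AS1 beside PTPRU, on 5 to 19 reads in a library.

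The 3 neighbours that fell with the block were FBLN5, NINJ1 and FAM120AOS. FBLN5, which encodes the matrix protein fibulin-5 and lies 1876 bases from TC2N, averaged 2.55 ± 0.612 CPM under siRNA1, 4.09 ± 1.27 under siRNA2 and 4.75 ± 1.56 under NTC (SD, n = 3 each; siRNA1 minus NTC −0.89 with the block, edgeR adjusted p = 1.21e-05; −0.90 and 0.191 without it). NINJ1 and FAM120AOS, on either side of WNK2, had −0.47 and −0.31 (edgeR adjusted p = 0.000559 and 0.00162 with the block, 0.0795 and 0.113 without it). EZR, which encodes the membrane linker ezrin and lies 865 bases from SYTL3 on the opposite strand, stood at 334 ± 16 CPM under siRNA1, 251 ± 8.39 under siRNA2 and 334 ± 19.8 under NTC (SD, n = 3 each), so its levels did not run parallel to those of SYTL3. Between siRNA2 and NTC the block fit called EZR lower (log2 fold change −0.41, edgeR adjusted p = 0.00258), where it called SYTL3 higher. Without the block neither was called there. Reads without strand cannot separate SYTL3 from transcription on the other strand, and its strand counts summed to 104% to 110% of the count used.

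**Figure D5:**
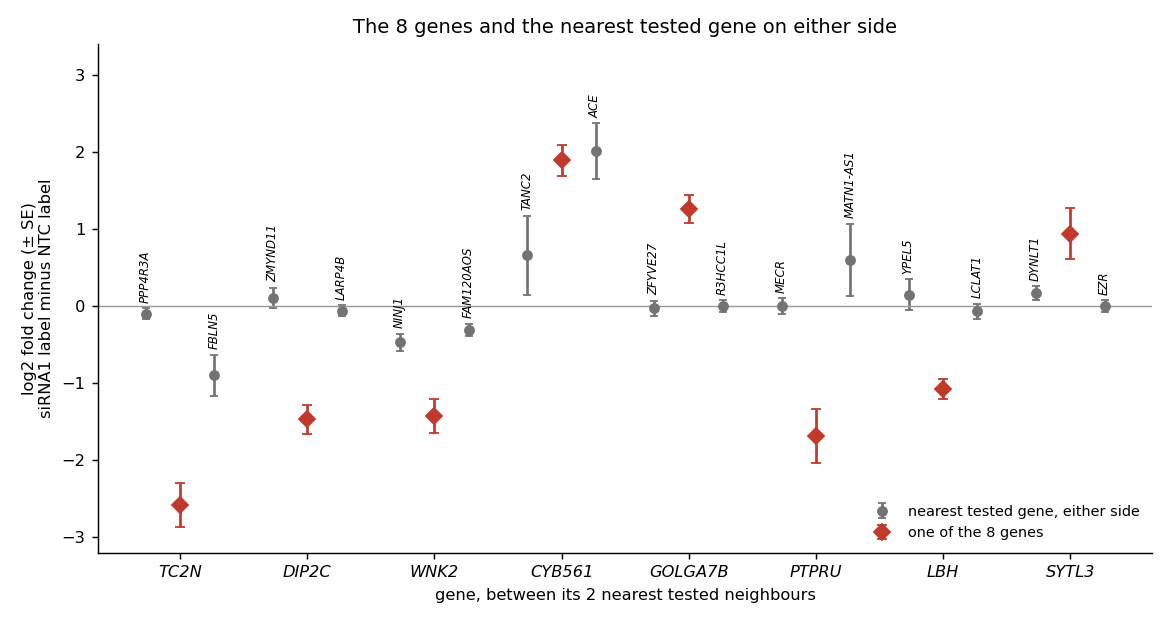
Log2 fold change of the siRNA1 label minus the NTC label, with SE bars, for each of the 8 genes (red diamonds) and the nearest tested gene at lower (left) and higher (right) coordinates (grey). ACE, beside CYB561, is at 2.01, and the other neighbours lie between −0.90 and 0.66.

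Genes with the most similar profiles were found by the root mean square difference of log2(CPM + 0.5), each gene centred on its own mean over the 9 libraries, among tested genes with a mean of at least 1 CPM. Centring takes out a gene's level but not the size of its differences, so this compares both the shape and the amplitude of profiles. The pseudocount of 0.5 flattens low genes such as CYB561. Nearest to TC2N was ADGRG1, an adhesion G protein-coupled receptor gene (0.159), and nearest to DIP2C the noncoding gene AC011893.1 (0.162), which was also second for TC2N (0.295). The noncoding gene LINC01120 was nearest to both WNK2 (0.12) and LBH (0.124), and LBH was second for WNK2 (0.171). CYB561 was nearest to the noncoding gene LINC002481 (0.0956) and then to TLX1 itself (0.124), and GOLGA7B to the integrin gene ITGB7 (0.142) and TNRC6C-AS1 (0.168).

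The profiles of PTPRU and SYTL3 also followed the replicate number. PTPRU was nearest to RAG2, a subunit of the recombinase of antigen receptor genes (0.239), which stood at 3.55, 6.19 and 8.16 CPM under siRNA1, 6.62, 11.9 and 19.7 under siRNA2 and 9, 12.8 and 22.5 under NTC. Replicate 1 was lowest and replicate 3 highest under each label for RAG2 too. SYTL3 was nearest to the cAMP phosphodiesterase gene PDE4D (0.133), at 6.78, 5.69 and 10.1 CPM under siRNA1, 6.79, 6.95 and 9.45 under siRNA2 and 3.21, 4.52 and 5.12 under NTC, with both siRNA labels above NTC in every library. The second for each was ADGRG1 (0.32) for PTPRU, MAP1A (0.19) for DIP2C, SH2B2 (0.129) for LBH and MIR4697HG (0.195) for SYTL3. Among the 8 genes themselves WNK2 and LBH were the closest pair (0.171), and TC2N and GOLGA7B were the farthest apart (1.32). These distances too follow in part from the choice of the genes.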

How the data were processed

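PolyA+ RNA of 9 ALL-SIL libraries was counted per gene. The deposited counts are whole numbers without normalization, 1 table per library, on build GRCh38 per the submitters' processing notes; no aligner or annotation version is stated in the sources used here. The first 4 lines of each table are not genes and were left out: 75.5% to 77.6% of reads fell in genes. The count without strand was used, since the kit does not mark strand per the labels' protocols. Of 58096 identifiers 57492 matched GENCODE 29.

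edgeR 4.0.16 in R 4.3.3 was run with TMM factors, filterByExpr (minimum count 10, minimum total 15) and a quasi-likelihood fit of all 3 labels; the threshold was 0.05 on p-values adjusted by Benjamini-Hochberg over 18554 genes. An SE was taken as the size of the log2 difference divided by the root of its F statistic. The replicate test adds the number to that fit. Per-gene code was tested on simulated data. Same-numbered libraries deviated together from their label means (r from 0.383 to 0.623 across genes in all 9 pairs), so the number was treated as pairing them.

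The 8 genes and the lists of relatives were chosen with earlier results of these data known. Named genes were the 8, TLX1, called relatives, the nearest tested neighbours and the 2 nearest profiles of each; relatives called only with the block were named after their values were seen. Alternatives used RLE factors, library size alone, other filters, strand sums, DESeq2 1.42.0, limma-voom 3.58.1, the block, only the groups compared and left-out libraries. Intervals cover the spread between libraries.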

Additional observations from a re-analysis of the deposited data

Results flagged for a closer look

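GOLGA7B, the palmitoyltransferase accessory gene, was flagged because its ratios to NTC had opposite signs under the 2 siRNA labels in every replicate number. The log2 ratio of siRNA1 to NTC was 1.16, 1.23 and 1.37 in replicates 1 to 3, and that of siRNA2 to NTC was −0.11, −0.35 and −0.11. The signs for siRNA1 follow from the choice of the gene, and the fitted siRNA2 difference was not told apart from 0. It was −0.18 (95% interval −0.58 to 0.22), with an edgeR adjusted p of 0.774 in the block fit. Were the siRNA1 and NTC labels exchanged, the opposite signs would not hold, since GOLGA7B averaged 3.45 CPM under siRNA1, 1.27 under siRNA2 and 1.44 under NTC. The difference between the 2 ratios was not tested, because the siRNA1 libraries chose the gene.

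TLX1, the targeted gene, was looked at between the siRNA1 and siRNA2 labels with 82 tested relatives, 16 neighbours and the tested cell type markers. Those markers were 10 of T cells, 4 of B cells, 4 myeloid, 1 of NK cells and 1 of fibroblasts. By edgeR's quasi-likelihood test 7 of all these genes differed, beside 1.08% of all genes tested. The log2 fold change of siRNA1 minus siRNA2 was 1.04 for TLX1, 2.13 for ACE, 0.42 for EZR, 0.55 for PTPRC, 0.43 for PTPRJ, −0.52 for ZDHHC20 and −0.43 for CD3G. The genes named for profiles like those of the 8 were left out here, since their likeness chose them. Groups of 3 libraries are too small for the test of single outlying samples.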

How the results depend on the processing

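The median size of the siRNA1 minus NTC difference over the 8 genes lay between 1.32 and 1.63 (log2) in 18 refits, against 1.44. Between siRNA2 and NTC no gene of the 8 changed sign over 19 refits. Without the low-count filter, 590 genes were called for siRNA1 against NTC (238 with it), 15 for siRNA2 against NTC (0), 557 for siRNA1 against siRNA2 (201), 8 relatives (3) and 1 of the 8 genes for siRNA2 (SYTL3, edgeR adjusted p = 0.0205). DESeq2 gave 556, 4 and 522 genes and 7 relatives. The replicate block, which pairs libraries by number, gave 2117, 28 and 1958 genes, 17 relatives and 2 of the 8 genes for siRNA2; it changed no other call of the 8 between siRNA2 and NTC. Without the replicate 1 libraries 75 genes were called for siRNA1 against NTC, 33 for siRNA1 against siRNA2, 0 relatives and 3228 genes by number (6650 with them). Fitting only the groups compared gave 117 for siRNA1 against siRNA2. Replicate 1 against 2 and 3 called 1260 genes and 1 of the 8, PTPRU. With 1 library left out the counts were 103 to 253, 0 to 0 and 72 to 185 genes, 2 to 3 relatives, 0 of the 8 for siRNA2, 4595 to 7083 genes by number and 3 to 5 of the 8 by number. The cause was not tested. Counts under 40 for CYB561 under siRNA2 and NTC limit its precision.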
